A study of Mus musculus with 4 samples.

Results

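The genes described here are 10 genes of the smooth muscle contractile apparatus, *Acta2*, *Actg2*, *Tagln*, *Cnn1*, *Myl9*, *Myh11*, *Tpm1*, *Tpm2*, *Csrp2* and *Myocd*, taken by symbol from the 32285 genes in the deposited counts. They were followed in the stroma of injured muscle, that is in cells with markers of pericytes and vascular smooth muscle, of mesenchymal cells, of chondrocytes and of muscle progenitors. The material was tibial muscle of *Nse-Bmp4* mice on the C57BL/6 strain, 6 to 8 weeks of age. The transgene places *Bmp4* behind the promoter of *Nse*, the gene of neuron-specific enolase, and the Uninjured mice carried it too, so that there was no wild-type muscle among these libraries. Muscle was injured with cardiotoxin, a snake venom toxin that lyses muscle fibres, in a model in which cartilage and bone then form within muscle. The 4 libraries of single cells, each made from 3 pooled muscles, were Uninjured, 1 dpi, 3 dpi and 7 dpi, where dpi counts the days after injury. With 1 library per time point no test between time points was possible. Differences between libraries are therefore given with intervals that cover counting error only, and 2-fold is used as a fixed size to count genes.

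Smooth muscle cells contract when myosin, switched on by its regulatory light chain, pulls on actin filaments that carry tropomyosin. Calponin and transgelin bind these filaments, and serum response factor with its partner myocardin switches the genes on through a DNA element called the CArG box. Fibroblasts of a healing wound can also take up part of this set, foremost smooth muscle alpha-actin, and are then called myofibroblasts.

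Promoter windows are shown because this element links the genes to one regulator. RefSeq promoter windows of build GRCm38.p6, 250 bases before to 50 bases after the start site, were found for 5 of the 10 genes, *Acta2*, *Cnn1*, *Myl9*, *Tpm1* and *Tpm2*. A complete CArG box of 10 bases, searched on both strands, was present in 1 of these 5 and in 535 of the 32851 promoters in the table (1.63%). With at most 1 letter off, a box was present in 3 of the 5 and in 6936 promoters (21.1%). For each of these 3 genes, 1 window of 30 bases is given below 5′ to 3′ on the strand of its gene, with the box in capitals. Each gene had a further box with 1 letter off, which is not shown. Distances count from the RefSeq start, which in each case lies inside the gene bounds given further below. The *Myl9* window (chr2:156775293-156775322, plus strand) held the complete box, 161 to 152 bases before the start. The *Acta2* window (chr19:34255438-34255467, minus strand) held a box with 1 letter off, 84 to 75 bases before the start. The *Tpm1* window (chr9:67049415-67049444, minus strand) held a box with 1 letter off, 221 to 212 bases before the start. A match of letters is a description and not evidence of binding.
Myl9: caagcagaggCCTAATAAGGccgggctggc
Acta2: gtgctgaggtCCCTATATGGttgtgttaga
Tpm1: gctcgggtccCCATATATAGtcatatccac

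The libraries held 91146335 to 129007669 unique molecular identifiers (UMIs, counts of single RNA molecules) in 11722 to 23752 barcodes, of which 52852 of 62665 passed the filters. The median depth of all barcodes, before the filters, was 8629 UMIs in Uninjured muscle and 3083 UMIs at 7 dpi. Pairs of libraries shared 30 to 95 barcodes. Each cell was placed in the class of which it expressed the most genes, from panels of 10 marker genes per class that held no member of the set, and such a class is called a gate below. The mesenchymal gate held 8424, 3872, 6455 and 12239 cells in Uninjured, 1, 3 and 7 dpi muscle. The mural gate, for pericytes and vascular smooth muscle, held 129, 15, 20 and 340 cells, the muscle gate 198, 89, 360 and 217 cells, and the chondrocyte gate 3588 cells at 7 dpi and none before. The panels made the gates, so the panel levels that follow describe the gates and do not test their names. The mural panel summed to 4094 to 8926 CPM (the UMIs of a gene per 1000000 UMIs of the gate) in the mural gate and to 31.7 to 296 CPM in the mesenchymal gate. *Pdgfra*, a receptor of mesenchymal cells and a gene of the mesenchymal panel, stood at 112 to 497 CPM in the mesenchymal gate and at 0 to 2.76 CPM in the mural gate. The mesenchymal panel as a whole summed to 352, 296, 397 and 2348 CPM in the mural gate of Uninjured, 1, 3 and 7 dpi muscle. *Postn*, another gene of that panel, stood at 843 CPM in the mural gate of 7 dpi, so this gate was not free of mesenchymal RNA. The chondrocyte panel stood at 28855 CPM in the chondrocyte gate and at 853 CPM in the mesenchymal gate of 7 dpi.

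Droplets can hold free RNA and UMIs of a further cell. Immune cells, which should lack most of the genes, therefore served as the background in the same library. The 10 genes together made up 85.7, 104, 119 and 592 CPM of the immune gate in Uninjured, 1, 3 and 7 dpi muscle. In the mesenchymal gate they made up 389, 225, 1230 and 4251 CPM, and in the mural gate 64165, 67912, 63864 and 26014 CPM. Other cells held more of the set than immune cells. Endothelial cells (22, 64, 133 and 101 cells) held 639, 290, 709 and 2402 CPM, and Schwann cells 1433, 441, 592 and 1134 CPM. A level above background below is thus a level above the immune gate alone. *Tpm1*, a tropomyosin gene that most cells use, gave 252 of the 605 immune UMIs in Uninjured muscle and 1067 of 3502 at 1 dpi. It gave 796 of 2675 at 3 dpi and 591 of 3691 at 7 dpi. The part of the immune cells' own RNA in the summed level was not tested. The immune gate had a median of 4084, 4571, 3316 and 2126 UMIs per cell and the mesenchymal gate 9151, 8032, 5648 and 3260. After thinning every cell to 1000 UMIs, 78.2% to 93.1% of immune cells had none of the 10 genes. An even spread at such low levels would also leave most cells with none, so this share does not show concentration. Part of the *Acta2* background did lie in few cells. The top 1% of immune cells held 24.6%, 73.7%, 62.5% and 62.4% of their *Acta2* UMIs, and the highest cell of 1 dpi held 271 of 746. The share of thinned cells with a UMI, in which a single cell weighs little, is therefore given beside the level where the background bears on a statement.

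In mesenchymal cells most of the set was low in Uninjured and 1 dpi muscle, part of it was higher at 3 dpi, and all of it was highest at 7 dpi. At 7 dpi all 9 genes with enough UMIs to be compared, all but *Myocd*, were at least 2-fold above Uninjured. Among them *Actg2* and *Cnn1* could be compared only through their UMIs at 7 dpi. The summed level of the set was then 3.45 higher on the log2 scale. The largest ratios belonged to the actins, to *Tagln* and to *Cnn1*, and the smallest to *Myl9*.

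*Acta2* encodes smooth muscle alpha-actin (ENSMUSG00000035783, chr19:34241090-34255590 of GRCm38, minus strand). In mesenchymal cells it stood at 9.72 CPM in Uninjured muscle, 11.0 CPM at 1 dpi, 163 CPM at 3 dpi and 951 CPM at 7 dpi. The 7 dpi level was 97.8 times that of Uninjured (95% interval of the UMI counts 91.1 to 105). The size of this ratio depended on the processing, as its log2 value of 6.61 was 4.49 with doublets (droplets with more than 1 cell) left in, 10.58 with the immune level subtracted, and 4.04 to 10.58 over all 13 alternatives. The immune gate stood at 9.20, 22.2, 18.3 and 157 CPM, so that *Acta2* in mesenchymal cells exceeded this background at 3 and 7 dpi and could not be told from it in Uninjured or 1 dpi muscle. After thinning, *Acta2* was detected in 0.867%, 0.906%, 6.82% and 41.9% of mesenchymal cells, against 1.03%, 1.23%, 1.64% and 7.05% of immune cells. Without thinning, the mesenchymal shares were 5.05%, 4.62%, 20.4% and 63.9%.

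*Actg2* encodes gamma-actin of enteric smooth muscle (ENSMUSG00000059430, chr6:83512905-83536265, minus strand). It was nearly absent from mesenchymal cells of Uninjured and 1 dpi muscle, with 1 and 0 UMIs. It had 191 UMIs at 3 dpi (3.38 CPM) and 7539 UMIs at 7 dpi (115 CPM). Because a single UMI underlies the Uninjured level, the ratio of 9109 at 7 dpi has an interval of 1634 to 359824. The immune gate stood at 9.31 CPM of *Actg2* at 7 dpi and at 0.208 to 0.566 CPM in the other libraries. Mural cells of Uninjured muscle held 6.45 CPM of *Actg2*, from 7 UMIs in 4 of the 129 cells.

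*Tagln* and *Cnn1* encode transgelin (SM22) and calponin 1, which bind actin filaments. *Tagln* (ENSMUSG00000032085, chr9:45929619-45936058, minus strand) stood at 9.13, 11.3, 83.2 and 544 CPM in mesenchymal cells of Uninjured, 1, 3 and 7 dpi muscle. The 7 dpi level was 59.6-fold above Uninjured (55.4 to 64.3), a log2 ratio of 5.90 that was 4.15 with doublets left in, 8.04 with the immune level subtracted and 3.17 to 8.04 over the alternatives. In Uninjured and 1 dpi muscle the immune gate held 7.36 and 11.8 CPM of *Tagln*, close to the mesenchymal gate. The gene lies opposite to *Pcsk7* and to the antisense gene *Gm48529*, and as no source used here states whether strand was used in counting, reads of these genes cannot be told apart there. *Cnn1* (ENSMUSG00000001349, chr9:22099216-22109630, plus strand) stood at 0.228, 0.169, 2.26 and 25.9 CPM, and the 7 dpi level was 114 times that of Uninjured (71.7 to 192, from 18 UMIs in Uninjured muscle). At 7 dpi the immune gate held 80.7 CPM of *Tagln* and 4.01 CPM of *Cnn1*, both far below the mesenchymal gate.

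*Myl9* and *Myh11* encode the regulatory light chain and the heavy chain of smooth muscle myosin, and at 3 dpi neither was higher than in Uninjured muscle by 2-fold. *Myl9* (ENSMUSG00000067818, chr2:156775420-156781658, plus strand) was well above background in mesenchymal cells of Uninjured muscle, at 81.5 CPM against 4.25 CPM in immune cells. It stood at 21.0 CPM at 1 dpi and 36.5 CPM at 3 dpi, both at least 2-fold below Uninjured, and at 235 CPM at 7 dpi, 2.88-fold above (2.80 to 2.96). *Myh11* (ENSMUSG00000018830, chr16:14194535-14291372, minus strand) stood at 2.78, 3.16 and 3.01 CPM and then at 26.2 CPM at 7 dpi. Immune cells held 1.42, 7.14, 4.06 and 19.3 CPM of *Myh11*. These immune levels rested on few cells, with 94 of 240 UMIs in 1 cell at 1 dpi, 68 of 91 in 1 cell at 3 dpi and 40 of 120 in 1 cell at 7 dpi. A UMI of *Myh11* was found in 0.297%, 0.233%, 0.257% and 2.82% of thinned mesenchymal cells, against 0.0791%, 0.323%, 0.151% and 0.740% of immune cells. The intervals of these shares overlapped in Uninjured, 1 dpi and 3 dpi muscle and not at 7 dpi (2.52% to 3.14% against 0.415% to 1.22%).

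*Tpm1* and *Tpm2* encode tropomyosins, which are also used by skeletal muscle and, in other splice forms, by most cells. *Tpm1* (ENSMUSG00000032366, chr9:67022590-67049406, minus strand) stood at 83.1, 76.9, 160 and 661 CPM in mesenchymal cells. *Tpm2* (ENSMUSG00000028464, chr4:43514711-43523765, minus strand) stood at 18.5, 17.0, 179 and 531 CPM. At 3 dpi *Tpm2* was 9.72-fold above Uninjured (9.20 to 10.3), while *Tpm1*, at 1.93-fold (1.87 to 1.99), was just under the 2-fold mark. At 7 dpi the ratios were 28.8 for *Tpm2* (27.3 to 30.3) and 7.96 for *Tpm1* (7.75 to 8.17).

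*Csrp2* encodes a LIM-domain protein of smooth muscle and stellate cells, and *Myocd* encodes myocardin. *Csrp2* (ENSMUSG00000020186, chr10:110919789-110939622, plus strand) had 184 CPM in mesenchymal cells of Uninjured muscle, 84.4 CPM at 1 dpi, 599 CPM at 3 dpi and 1162 CPM at 7 dpi. It was at least 2-fold lower at 1 dpi, 3.26-fold higher at 3 dpi (3.20 to 3.33) and 6.33-fold higher at 7 dpi (6.21 to 6.44). *Myocd* (ENSMUSG00000020542, chr11:65176561-65269989, minus strand) had 1, 1, 6 and 28 UMIs in the mesenchymal gate of the 4 libraries, 0.428 CPM at 7 dpi, against 0.321 CPM from 2 UMIs in the immune gate. Expression of *Myocd* in mesenchymal cells could not be told from the immune level at this depth, whereas mural cells held 21.6 to 93.5 CPM.

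**Figure D1:**
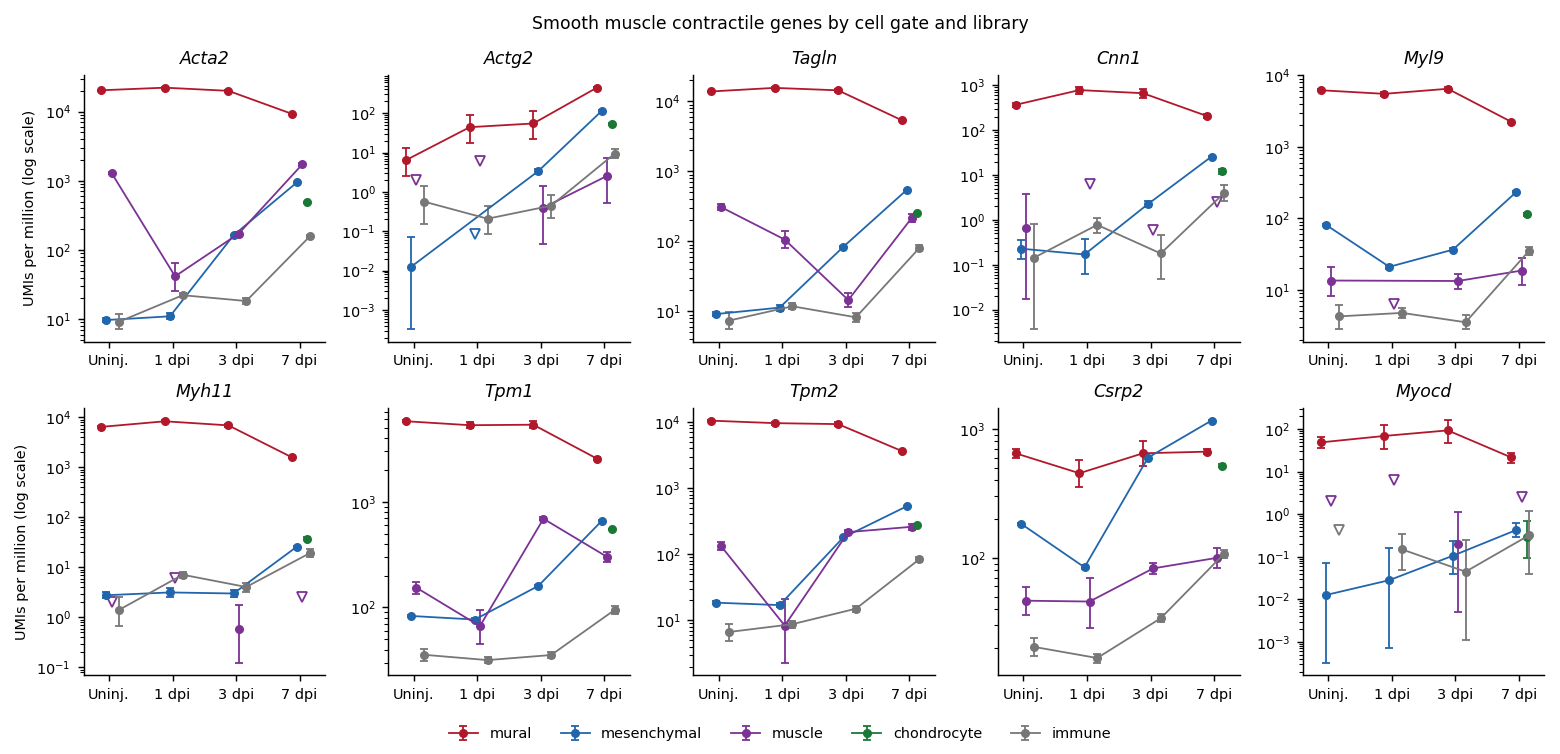
CPM of each of the 10 genes (log axis) against library for the mural, mesenchymal, muscle, chondrocyte and immune gates, with 95% Poisson intervals and open triangles where no UMI was counted, drawn at the level of 3 UMIs. *Acta2* in the mesenchymal gate goes from 9.72 CPM in Uninjured muscle to 951 CPM at 7 dpi, while *Myh11* at 7 dpi lies close to the immune gate, 26.2 against 19.3 CPM.

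All 3 comparisons used the same Uninjured library. At 1 dpi, 7 of the 10 genes had the 50 UMIs in both libraries together that a gene needed to be compared. None of them was at least 2-fold higher, where 8.21% of all compared genes were, and 2 were at least 2-fold lower, where 4.31% of all genes were. These were *Myl9*, 3.87-fold lower (3.59 to 4.18), and *Csrp2*, 2.18-fold lower (2.09 to 2.26). This count depends on the removal of doublets, since 6 genes were lower when doublets were left in. At 3 dpi, 6 of 9 genes were at least 2-fold higher (*Acta2*, *Actg2*, *Tagln*, *Cnn1*, *Tpm2* and *Csrp2*), against 13.1% of all genes. *Myl9* was at least 2-fold lower, against 8.26% of all genes, and *Acta2* had the largest ratio that did not rest on a single UMI, 16.8 (15.6 to 18.1). Its log2 ratio of 4.07 was 2.0 with doublets left in and 8.12 with the immune level subtracted, the lowest and highest of the alternatives. At 7 dpi, 9 of 9 genes were at least 2-fold higher and none lower, where 17.0% of all genes were higher and 10.8% lower. At 3 and 7 dpi *Actg2* and *Cnn1*, with 1 and 18 UMIs in Uninjured muscle, reached the 50 UMIs only through the injured library. The filter thus fixed their call as higher, and they add no support to these counts. Over the alternatives the log2 ratio at 7 dpi ranged from 10.00 to 13.48 for *Actg2*, 5.27 to 7.99 for *Cnn1*, 2.80 to 5.24 for *Tpm2*, 1.20 to 3.58 for *Tpm1* and 1.16 to 2.69 for *Csrp2*. It ranged from 0.52 to 3.81 for *Myh11* and from -0.27 to 1.74 for *Myl9*, and the values under 2-fold came from one naming of clusters, under which 6 genes were at least 2-fold higher. The median log2 ratio of the compared members was -0.11 at 1 dpi, 3.19 at 3 dpi and 4.85 at 7 dpi, and that of all genes was 0.17, 0.10 and 0.07.

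**Figure D2:**
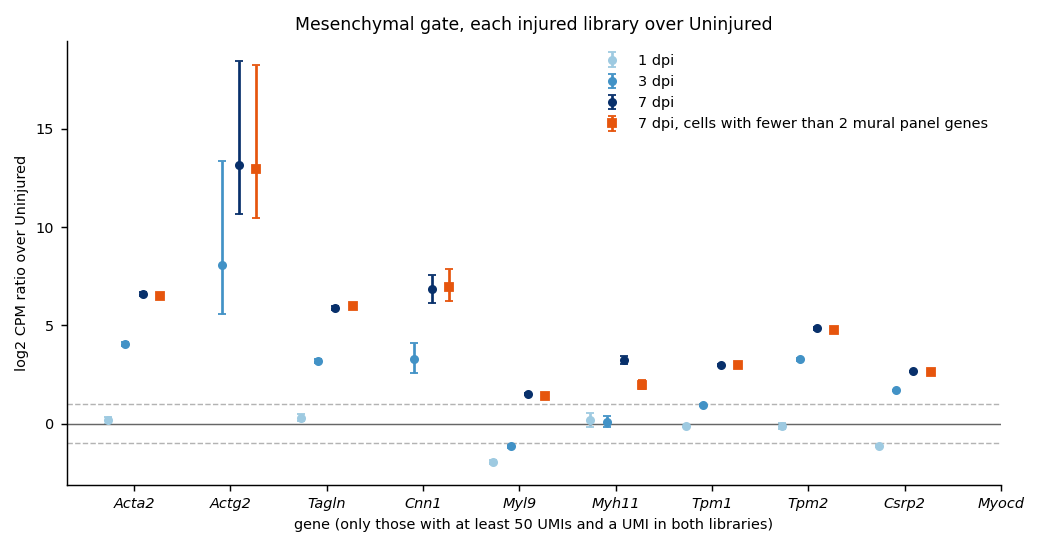
Log2 ratio of CPM over Uninjured in mesenchymal cells for each gene at 1, 3 and 7 dpi and for the 7 dpi cells with fewer than 2 mural panel genes, with 95% counting intervals and dashed lines at 2-fold. At 7 dpi every compared gene lies above the upper dashed line, *Acta2* at 6.61 and *Myl9* at 1.53.

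Markers of mural cells moved with the set in part. Both were lower than in Uninjured muscle at 1 dpi and higher at 7 dpi. At 3 dpi the set was higher than in Uninjured muscle, while the mural panel was lower. The mural panel in the mesenchymal gate stood at 94.0, 31.7, 58.4 and 296 CPM, and *Rgs5*, a pericyte marker, at 1.18, 0.338, 1.34 and 85.2 CPM. In the immune gate the mural panel stood at 8.21, 7.23, 9.45 and 68.4 CPM and *Rgs5* at 0.566, 0.506, 0.981 and 29.0 CPM, so both were higher there too at 7 dpi. Leaving out mesenchymal cells with 2 or more mural panel genes, a choice made after seeing the data, removed 2018 of the 12239 cells at 7 dpi. The cells kept still held 115 CPM of the mural panel at 7 dpi, against 69.7 CPM in those kept of Uninjured muscle. *Acta2* then stood at 857 CPM, *Actg2* at 109 CPM, *Tagln* at 505 CPM, *Cnn1* at 24.3 CPM and *Csrp2* at 1135 CPM, and all 9 genes were still at least 2-fold above Uninjured. Among the compared genes *Myh11* alone moved by more than 1.5-fold, from 26.2 to 10.9 CPM, and the cells left out held 84.5 CPM of it. The immune gate stood at 19.3 CPM, where 27 of 2153 cells held its 120 UMIs and 1 of them held 40.

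The number of *Acta2* UMIs per *Myh11* UMI differed between the gates. It was 3.14 in mural cells of Uninjured muscle (3.05 to 3.22) and 5.83 in those of 7 dpi (5.64 to 6.03). Divided by further smooth muscle and pericyte genes, the mural gate of 7 dpi had 3.87 on its smooth muscle side (3.73 to 4.03) and 16.3 on its pericyte side (14.9 to 17.8). Mesenchymal cells had 3.50 in Uninjured muscle (3.01 to 4.08) and 3.47 at 1 dpi (2.81 to 4.32), near the value of Uninjured mural cells. At 3 dpi they had 54.3 (46.6 to 63.6) and at 7 dpi 36.3 (34.6 to 38.1), against 8.13 in immune cells of 7 dpi (6.72 to 9.92). The intervals of mesenchymal cells at 3 and 7 dpi overlapped neither those of mural cells, nor those of either side at 7 dpi, nor those of immune cells in the same library. They cover counting error and not the spread between cells. At 3 dpi 94.7% of the mesenchymal *Myh11* UMIs lay in 64 cells, 68 of 91 immune ones lay in 1 cell, and the mural gate had 20 cells.

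The number of the 10 genes detected in single mesenchymal cells differed between libraries. Such a number also follows from the share of cells with each gene, and it was not set against the product of those shares. After thinning to 1000 UMIs, 3 or more of the 10 genes were detected in 0.297%, 0.311%, 3.83% and 40.7% of mesenchymal cells in Uninjured, 1, 3 and 7 dpi muscle. The same was true of 2.22% of immune cells, 26.8% of chondrocytes and 83.5% of mural cells at 7 dpi. At 7 dpi 85.5% of mesenchymal cells had at least 1 of the genes, against 21.8% of immune cells.

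**Figure D3:**
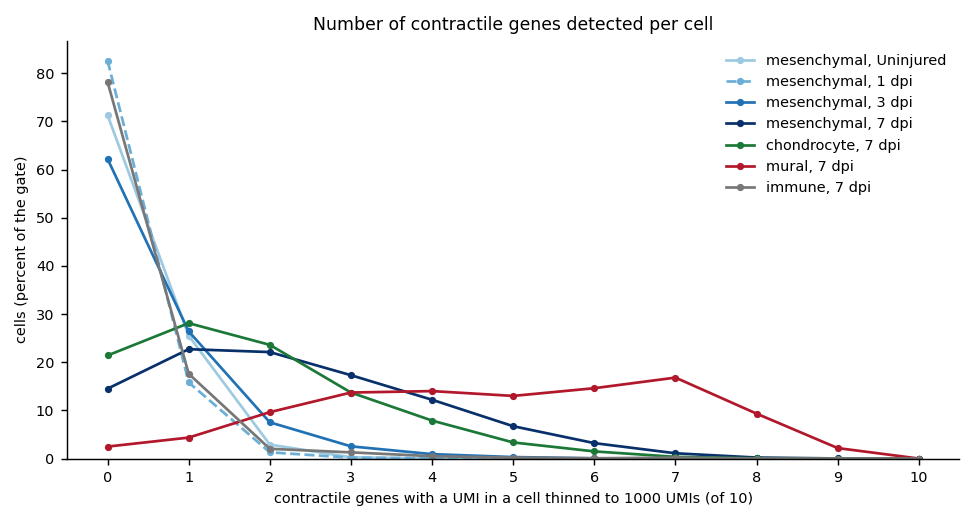
Percent of cells, each thinned to 1000 UMIs, by the number of the 10 genes detected, for the mesenchymal gate in each library and the chondrocyte, mural and immune gates at 7 dpi. Cells with 3 or more genes make up 0.297% of the mesenchymal gate in Uninjured muscle and 40.7% at 7 dpi.

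At 3 dpi the UMIs of *Acta2* lay in few mesenchymal cells, the top 1% of cells (64 cells) holding 37.1% of them, and at 7 dpi the top 1% (122 cells) held 19.6%. *Csrp2* was spread more evenly, with 12.6% and 10.9% in the top 1%. *Myh11* had 94.7% and 56.3% in the top 1%. All 191 *Actg2* UMIs of 3 dpi lay in the top 1% of cells, 50 of them in 1 cell, and at 7 dpi the top 1% held 31.5%. At 3 dpi only 58 cells held a UMI of *Actg2* and 73 a UMI of *Myh11*, so their shares follow largely from scarcity. Such a share also depends on the number of UMIs, which was larger for *Csrp2*. Thinned cells of 3 dpi with *Acta2* and *Tagln* together were 5.87 times as many as the product of both shares gives, and those with *Acta2* and *Tpm2* 4.57 times as many. With *Tnn*, a tenascin of bone-forming mesenchyme, *Acta2* was found 5.82 times as often as the product, and with *Pi16*, a marker of resting adventitial fibroblasts, 0.537 times. At 7 dpi, when the genes were detected in more cells, these multiples were closer to 1, at 1.58 for *Tagln*, 1.44 for *Tpm2*, 1.24 for *Tnn* and 0.655 for *Pi16*. Those of *Acta2* with *Tpm1* and *Csrp2* were 2.36 and 2.26 at 3 dpi and 1.22 and 1.14 at 7 dpi. At 7 dpi, 74.1% of the thinned cells with *Actg2* also had *Acta2*, which was found in 41.9% of all mesenchymal cells.

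At 3 dpi the set was higher in mesenchymal cells with a UMI of *Lrrc15* or *Tnn*, genes of activated, matrix-producing fibroblasts, than in those without, with the 10 genes together at 2590 against 724 CPM. At 3 dpi, *Acta2* stood at 431 CPM in the 829 cells with such a UMI and at 63.4 CPM in the 5626 cells without. *Actg2* stood at 11.7 against 0.291 CPM, *Tagln* at 196 against 41.2 CPM and *Csrp2* at 1141 against 397 CPM. At least 2-fold higher were 8 of 9 genes, against 3.86% of all genes, and the exception was *Myh11*, at 0.913 against 3.79 CPM. *Actg2* could be compared only through the cells with such a UMI, which fixed its call as higher. Cells with such a UMI were deeper, with a median of 18572 against 4948 UMIs, and the part of depth in this difference was not tested.

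At 7 dpi the cells with a UMI of *Lrrc15* or *Tnn* numbered 6942, and 5297 were without. Their median depths were 4133 and 2340 UMIs, and the part of depth was not tested here either. The 10 genes together stood at 5022 against 2552 CPM, while cells with a UMI of *Rgs5* or *Notch3*, whose mural panel stood at 1020 CPM, held 5805 CPM. *Acta2* stood at 1130 against 555 CPM, *Actg2* at 147 against 44.7 CPM and *Tagln* at 655 against 300 CPM, with 6 of 9 genes at least 2-fold higher against 1.36% of all genes. *Myh11* was again lower, at 20.2 against 39.3 CPM. The cells without such a UMI still held more *Acta2* at 7 dpi (555 CPM) than those with one at 3 dpi (431 CPM).

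Cells with markers of cycling and of resting progenitors also differed from the rest. At 3 dpi the 1172 mesenchymal cells with a UMI of the proliferation genes *Mki67* or *Top2a* held 313 CPM of *Acta2* against 86.8 CPM in the others, and 7 of 9 genes were at least 2-fold higher, against 5.77% of all genes. At 7 dpi *Acta2* stood at 1107 against 891 CPM in these groups. The cells with such a UMI were deeper, with medians of 15184 against 4849 UMIs at 3 dpi and 4190 against 2948 UMIs at 7 dpi. The part of depth in these differences was not tested. *Mki67* and *Top2a* overlapped with *Lrrc15* and *Tnn* at 3 dpi. The 10 genes together stood at 2904 CPM in cells with UMIs of both kinds, at 2106 CPM with *Lrrc15* or *Tnn* alone, at 1158 CPM with *Mki67* or *Top2a* alone and at 588 CPM with neither. In the same order the median depths were 21927, 14919, 12022 and 4571 UMIs. The 3044 cells of 7 dpi with a UMI of *Pi16* or *Dpp4*, markers of adventitial progenitors, held 512 CPM of *Acta2*, 50.7 CPM of *Actg2* and 12.2 CPM of *Cnn1*. The cells without it held 1138, 143 and 31.7 CPM. The order of these groups changed with the library, as the 10 genes together stood at 418 CPM in cells with such a UMI against 319 CPM without in Uninjured muscle, 224 against 227 CPM at 1 dpi, 1066 against 1398 CPM at 3 dpi and 2697 against 4916 CPM at 7 dpi. The 2664 cells of 7 dpi with a UMI of *Tnmd*, a tendon gene, held 1112 CPM of *Acta2* against 897 CPM in cells without. Cells of 7 dpi with a UMI of *Pi16* or *Dpp4* were also deeper than the rest, with medians of 4652 against 2921 UMIs. For *Tnmd* the medians were 4140 against 3061 UMIs.

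Mural cells of Uninjured muscle held far more of the set than mesenchymal cells. All 9 genes that could be compared were at least 2-fold higher there, against 13.9% of all genes, with a median log2 ratio of 10.57. Of these, *Cnn1* and *Myocd*, with 18 and 1 UMIs in mesenchymal cells, could be compared only through the mural gate, which fixed their call. *Acta2* stood at 20298 CPM, *Tagln* at 13881 CPM, *Myh11* at 6472 CPM and *Myocd* at 48.8 CPM. At 7 dpi 9 of 10 genes were still at least 2-fold higher in mural than in mesenchymal cells, against 9.48% of all genes, but the median log2 ratio was 3.13. *Csrp2* was the exception, at 666 CPM in mural and 1162 CPM in mesenchymal cells. *Myocd*, with 28 UMIs in mesenchymal cells of 7 dpi, could again be compared only through the mural gate, which fixed its call.

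Within the mural gate most of the set was lower at 7 dpi than in Uninjured muscle. *Acta2* stood at 20298, 22143, 19919 and 9252 CPM, *Myl9* at 6210, 5528, 6507 and 2242 CPM, and *Myh11* at 6472, 8370, 6936 and 1587 CPM in Uninjured, 1, 3 and 7 dpi muscle, with only 15 and 20 cells at 1 and 3 dpi. Of 10 genes, 7 were at least 2-fold lower at 7 dpi (*Acta2*, *Tagln*, *Myl9*, *Myh11*, *Tpm1*, *Tpm2* and *Myocd*), against 8.81% of all genes. *Actg2* alone was higher, against 17.7% of all genes, at 443 CPM over 6.45 CPM. With 7 UMIs in Uninjured muscle it could be compared only through 7 dpi, which fixed its call. All genes together had a median log2 ratio of 0.14 in this comparison.

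The makeup of the gate differed between these libraries. By 6 further genes of each kind, the gate held 119 cells of the smooth muscle side and 10 of the pericyte side in Uninjured muscle, and 105 and 211 cells at 7 dpi, with 24 cells tied. On the smooth muscle side alone, a split run as an alternative after seeing the data, none of the 7 was lower any more (2.32% of all genes were) and 1 gene was higher, against 4.66% of all genes. This gene, *Actg2*, could be compared only through 7 dpi, which fixed its call. The side was assigned by other smooth muscle genes (*Lmod1*, *Rergl*, *Pln*, *Sncg*, *Itga8* and *Ppp1r14a*), so that a cell with less of the whole programme would be placed on the pericyte side, and the split cannot tell lower levels per cell from a changed makeup. *Acta2* stood at 21271 CPM in Uninjured muscle and 19865 CPM at 7 dpi, *Tagln* at 14557 and 15207 CPM, *Myl9* at 6452 and 5851 CPM, *Myh11* at 6795 and 5130 CPM, and *Tpm2* at 10957 and 9386 CPM. *Myocd* stood at 51.3 and 62.7 CPM. The ratio of *Acta2* at 7 dpi to Uninjured was 0.934 there (0.914 to 0.955) and that of *Myh11* was 0.755 (0.724 to 0.787).

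*Actg2* was the gene past 2-fold on the smooth muscle side. With 7 UMIs there in Uninjured muscle it could be compared only through 7 dpi, so its call as higher was fixed. It stood at 6.78, 44.4, 57.3 and 290 CPM in Uninjured, 1, 3 and 7 dpi muscle, and the 7 dpi level was 42.8-fold above Uninjured (20.3 to 108). The values at 1 and 3 dpi came from 7 UMIs each, in 1 cell of each library, so that only the Uninjured and 7 dpi levels rest on several cells. There were 3136 *Acta2* UMIs per *Actg2* UMI on this side in Uninjured muscle (1522 to 7802) and 68.5 at 7 dpi (59.3 to 79.6), against 8.25 in mesenchymal cells (8.06 to 8.45) and 16.8 in immune cells (12.9 to 22.3) of 7 dpi. The part of free RNA in the mural value was not tested.

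The pericyte side of 7 dpi, 211 cells, held 5038 CPM of *Acta2*, 430 CPM of *Actg2*, 1746 CPM of *Tagln*, 309 CPM of *Myh11* and 565 CPM of *Csrp2*. In the 10 pericyte-side cells of Uninjured muscle these genes stood at 1375, 0, 735, 188 and 56.5 CPM. The mesenchymal panel was at 2958 CPM in the pericyte side of 7 dpi, and its part in these levels was not tested.

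**Figure D4:**
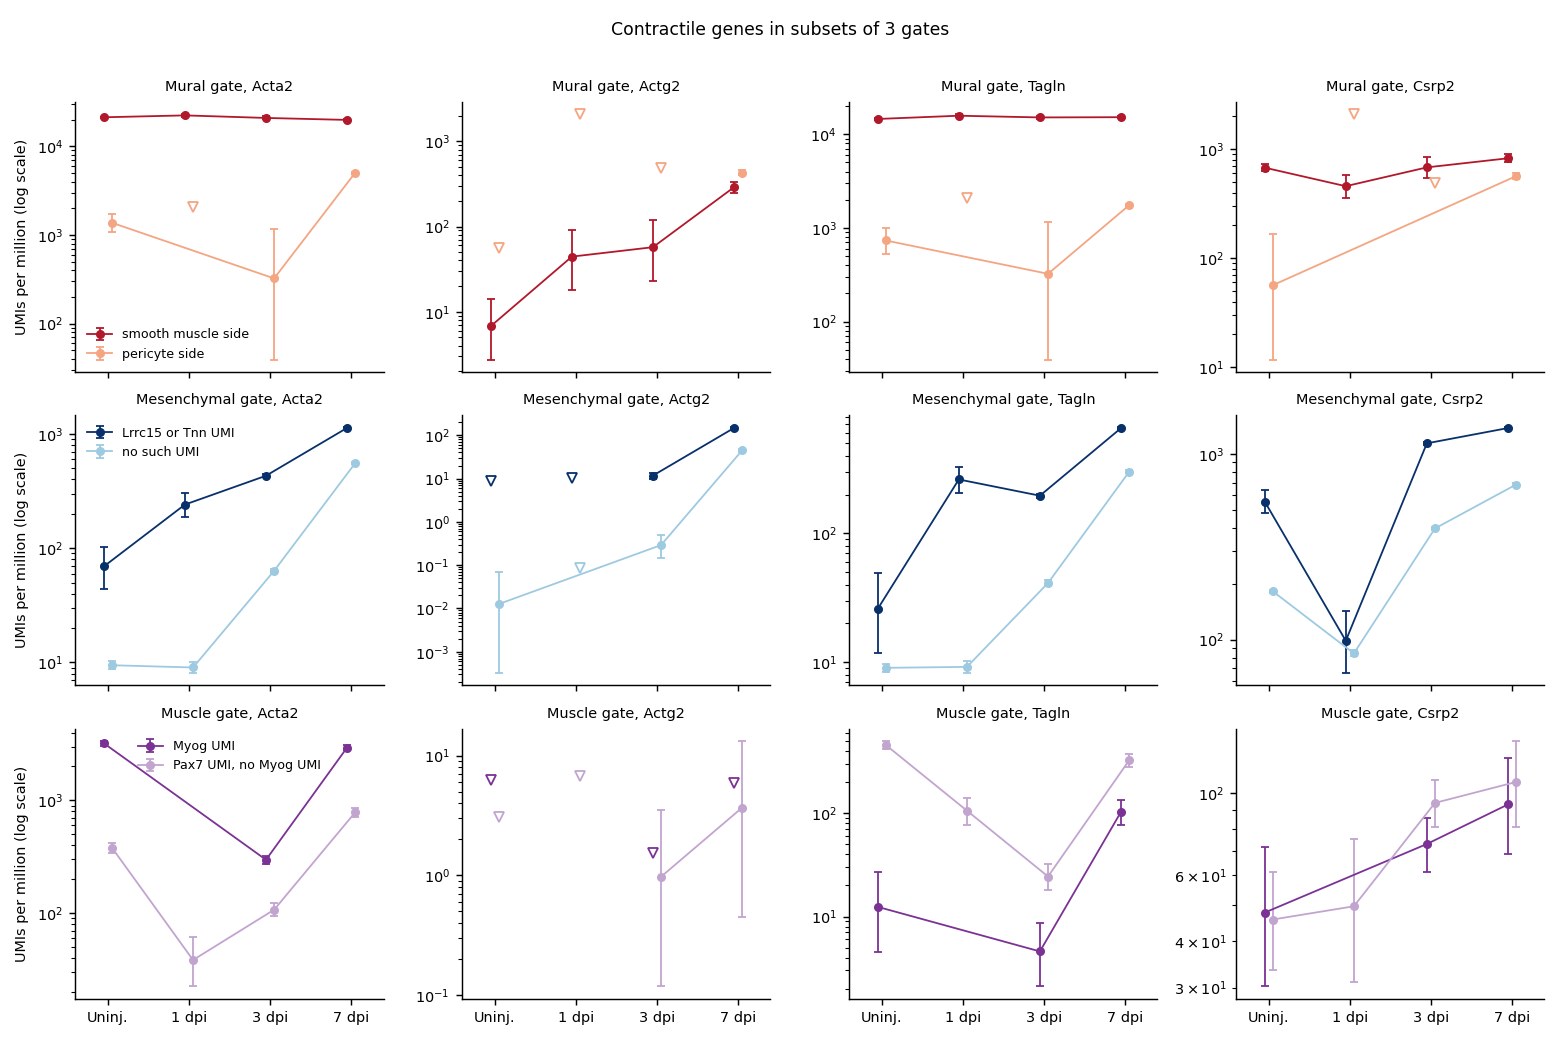
CPM of *Acta2*, *Actg2*, *Tagln* and *Csrp2* (log axis) by library in the 2 sides of the mural gate, in mesenchymal cells with and without a UMI of *Lrrc15* or *Tnn*, and in muscle cells with *Myog* or with *Pax7* and no *Myog*. On the smooth muscle side *Acta2* stays between 19865 and 22344 CPM, while in mesenchymal cells with *Lrrc15* or *Tnn* it reaches 1130 CPM at 7 dpi.

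Chondrocytes of 7 dpi held the set at a lower level than mesenchymal cells of the same library in the main processing. *Acta2* stood at 489 CPM, *Tagln* at 251 CPM, *Tpm1* at 547 CPM, *Csrp2* at 519 CPM and *Actg2* at 52.1 CPM, against 951, 544, 661, 1162 and 115 CPM. Of 9 genes 5 were at least 2-fold lower (*Actg2*, *Tagln*, *Cnn1*, *Myl9* and *Csrp2*), against 7.41% of all genes, with ratios of 0.447 to 0.487. As these ratios lie close to the mark, the count ranged from 0 to 9 with the processing, and with one naming of clusters the 9 genes were higher in chondrocytes. The median log2 ratio of the set was -1.04 and that of all genes -0.17. *Myh11*, at 37.5 CPM, stood above the mesenchymal gate, and all the named levels exceeded those of the immune gate, where *Acta2* was at 157 CPM and *Tpm1* at 94.8 CPM. The log2 ratio of *Myh11*, 0.52, ranged from -1.70 to 1.78 over the alternatives, and 35 chondrocytes held 52.0% of its UMIs. The mural panel stood at 542 CPM in the chondrocyte gate and 296 CPM in the mesenchymal gate, and its part in the *Myh11* level was not tested. The mesenchymal panel stood at 6380 CPM in the chondrocyte gate and 10769 CPM in the mesenchymal gate. Its part in the levels of the set in chondrocytes was not tested.

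Muscle progenitors held a different part of the set. *Acta2*, which regenerating skeletal muscle is known to express, stood at 1300, 41.6, 172 and 1719 CPM in Uninjured, 1, 3 and 7 dpi muscle. *Tpm1* stood at 154, 66.6, 690 and 301 CPM, *Tpm2* at 132, 8.33, 216 and 260 CPM, and *Tagln* at 308, 106, 14.5 and 217 CPM. *Actg2*, *Cnn1*, *Myh11* and *Myocd* had 0 to 3 UMIs in each library of the muscle gate. For *Myh11*, 0 of 1482832 UMIs in Uninjured muscle allows up to 2.02 CPM by the limit of 3 UMIs, or 2.49 CPM by the exact 95% Poisson interval.

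Within the muscle gate, cells with a UMI of *Myog*, a factor of differentiating myoblasts, numbered 39, 0, 108 and 74. They held 3212 CPM of *Acta2* in Uninjured muscle, 297 CPM at 3 dpi and 2942 CPM at 7 dpi. Cells with a UMI of *Pax7*, the factor of satellite cells, and none of *Myog* held 380, 38.3, 107 and 783 CPM. *Tagln* had the opposite order, at 458 CPM in *Pax7* cells and 12.4 CPM in *Myog* cells of Uninjured muscle, and at 325 and 103 CPM at 7 dpi. RNA of 9 skeletal fibre genes stood at 1078, 14.6, 1637 and 2315 CPM in the muscle gate, and its part in the *Acta2* level was not tested.

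Other genes of the pathway were followed in mesenchymal cells through lists of names. Of 16 other smooth muscle genes, 14 could be compared at 7 dpi, of which 6 were at least 2-fold higher (*Mylk*, *Lmod1*, *Cald1*, *Pln*, *Sncg* and *Pdlim3*) and 1 lower (*Itga8*), where 17.0% of all genes were higher and 10.8% lower. *Mylk*, the kinase of the myosin light chain, stood at 17.8, 18.3, 26.4 and 40.1 CPM. *Cald1*, caldesmon, stood at 327, 403, 597 and 726 CPM. The median log2 ratio of this list was 0.84, where the 10 genes described here had 4.85. In mural cells of Uninjured muscle, by contrast, all 16 were at least 2-fold above the mesenchymal gate, against 13.9% of all genes. *Lmod1* is itself a gene of the mural panel, so its higher level there follows in part from the gate. The list genes that could not be compared at 7 dpi had too few mesenchymal UMIs. In Uninjured muscle they were therefore compared only through the mural gate, which fixed their call.

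Of 16 cytoskeletal genes that most cells express, 9 were at least 2-fold above Uninjured at 7 dpi (*Actb*, *Tpm4*, *Myh9*, *Cnn2*, *Cnn3*, *Csrp1*, *Actn1*, *Vcl* and *Flna*) and 1, *Myl12b*, was lower, against 17.0% and 10.8% of all genes, with a median log2 ratio of 1.06. *Actn1*, alpha-actinin, stood at 11.0, 33.3, 146 and 170 CPM and *Myh9*, non-muscle myosin, at 51.2, 94.7, 183 and 227 CPM, so that *Actn1* was already at least 2-fold higher at 1 dpi. *Cnn2*, the calponin of non-muscle cells, stood at 28.8, 29.4, 85.6 and 200 CPM.

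Of 11 regulators, 4 were at least 2-fold higher and 1 lower both at 3 dpi (*Srf*, *Tead1*, *Elk3* and *Prdm6*, with *Klf4* lower) and at 7 dpi (*Mef2c*, *Gata6*, *Elk3* and *Prdm6*, with *Klf4* lower). Of all genes, 13.1% were higher and 8.26% lower at 3 dpi, and 17.0% and 10.8% at 7 dpi. *Srf*, serum response factor, stood at 7.73, 15.6, 16.1 and 9.49 CPM. *Klf4*, a repressor of smooth muscle genes, stood at 1578, 1202, 543 and 392 CPM. On the TGF-beta side, 4 of 13 genes were at least 2-fold higher at 7 dpi (*Tgfb1*, *Tgfb3*, *Thbs1* and *Fhl2*), against 17.0% of all genes. *Thbs1*, thrombospondin, stood at 92.0, 226, 347 and 328 CPM, *Ccn2* at 159, 332, 579 and 194 CPM, and the ligand gene *Tgfb3* at 36.0, 31.7, 65.0 and 119 CPM. *Ccn2* and *Thbs1*, 2 of the 13, were at least 2-fold higher at 1 dpi, against 8.21% of all genes, when no compared gene of the contractile set was.

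The genes whose levels were most like those of each member were sought over the 22 gate and library profiles with at least 50 cells, by Pearson correlation of log2(CPM + 1) over 13185 genes. The profiles share libraries and depth, and the values are a description. *Tpm2* was the gene most like both *Acta2* (r of 0.945) and *Tpm1* (0.947), while *Acta2* and *Tpm1* had 0.855 with each other. *Cnn1* and *Myh11* were like one another (0.912) and like *Lmod1*, leiomodin (0.915 and 0.916). *Myocd*, with few UMIs, was most like *Lmod1* (0.957), *P2rx1* (0.934) and *Hspb7* (0.933). *Actg2* was most like *Acan*, the aggrecan of cartilage (0.827), *Cox4i2* (0.819) and *Fbn2* (0.803). *Lmod1*, *Acan* and *Cox4i2* are genes of the panels that made the gates. For *Csrp2* these were *Fjx1* (0.890), *Prdx4* (0.878) and *Eva1b* (0.865), for *Tagln* *Adgrl1* (0.839), *Gm13889* (0.835) and *Wtip* (0.831), and for *Myl9* *Tbx2* (0.918), *Nkd1* (0.918) and *Gm15270* (0.913). *Acta2* was further most like *Rgs4* (0.894) and *Ndufa12* (0.884), *Myh11* like *Olfr558* (0.943), *Tpm1* like *Chchd2* (0.884) and *Yaf2* (0.883), *Tpm2* like *Gm13889* (0.891) and *Cnn1* like *Prkg1* (0.894).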

How the data were processed

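The deposited files held whole-number UMI counts per gene and cell barcode, 1 matrix per library. Per the labels, the authors made these counts with Cell Ranger 5.0.0 and the STAR aligner on mm10, with reads down-sampled across libraries, and used Seurat 3.1.1 downstream. Cells beyond 2 SD of log10 UMIs or genes, with over 10% mitochondrial UMIs, or among the 7.5% of highest Scrublet doublet score were left out (scanpy 1.11.5, Python 3.11.15). A cell joined the gate with the most panel genes detected, at least 3. UMIs were summed per gate and library and given as CPM with exact 95% Poisson intervals, shares with Clopper-Pearson intervals and ratios with exact conditional binomial intervals. All cover counting error only. Genes with 50 UMIs in both groups together were compared, so that a gene scarce in 1 group could be compared only through the group where it was high. Interval and fold calculations were tested on simulated data. The members, panels and lists were chosen with earlier results of these data known. Named were the members, list genes that passed 2-fold or were needed to account for a list, and the 3 genes most like each member among genes with 500 UMIs. The alternatives were doublets left in, linear SD limits, stricter or thinned gates, Leiden clusters, other scaling, background subtraction, no UMI filter and leaving out marked cells.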

Additional observations from a re-analysis of the deposited data

Results flagged for a closer look

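For 6 genes the ratio of 7 dpi over Uninjured pointed in opposite directions in mesenchymal and in mural cells, higher in the former and lower in the latter. The mesenchymal minus the mural log2 ratio was 7.74 for *Acta2*, 7.26 for *Tagln*, 6.37 for *Tpm2*, 5.26 for *Myh11*, 4.16 for *Tpm1* and 3.00 for *Myl9*. With 1 library per time point the difference was not tested. On the smooth muscle side of the mural gate alone, each of the 6 genes lay within 2-fold of Uninjured, at log2 ratios of -0.10, 0.06, -0.22, -0.41, -0.28 and -0.14 in the same order. This side was assigned by other smooth muscle genes, so that it cannot tell lower levels per cell from a changed makeup of the gate.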

How the results depend on the processing

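No paired analysis was possible because each time point had 1 library. Of 675 values of single genes under the alternatives, 333 stayed within the counting interval, 330 left it with the direction kept or below 2-fold, and 12 turned. The counts of genes past 2-fold in mesenchymal cells at 3 and 7 dpi, and in mural against mesenchymal cells of Uninjured muscle, stayed within 1.5 times under every alternative run. At 1 dpi the 2 genes became 6 with doublets left in, 5 with the immune level subtracted and 4 with no UMI filter. For mural cells at 7 dpi, 8 became 1 with Leiden clusters and on the smooth muscle side alone, where *Tagln* turned to log2 ratios of 0.24 and 0.06 and *Myocd* to 0.48 and 0.29, with *Acta2* at 0.05 in Leiden clusters. The Leiden cluster named mural held 120 cells of Uninjured muscle and 86 of 7 dpi, with *Acta2* at 21258 CPM over its cells. The mural gate held 129 and 340 cells, so both alternatives left out most of its cells of 7 dpi. The 5 lower genes of chondrocytes became 3 lower with doublets left in, 3 (1 higher) without mesenchymal cells with *Rgs5* or *Notch3*, 8 (1 higher) with the immune level subtracted and 9 lower with Leiden clusters. They became 0 with linear SD limits, median-of-ratios scaling, the mean of cells' own CPM, or without mesenchymal cells with *Lrrc15* or *Tnn*, where *Actg2* turned to 0.22. The summed mesenchymal log2 ratio of 3.45 was 3.12 with doublets left in, 3.37 with linear limits, 3.35 with thinned gates, 3.55 with Leiden clusters, 3.38 with median-of-ratios scaling, 3.39 as a mean over cells and 3.59 after subtraction. It was 3.35 without cells with *Rgs5* or *Notch3*, 2.72 without *Lrrc15* or *Tnn* cells and 3.37 without cells with 2 or more mural panel genes.

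Leiden clusters were named by the mean number of panel genes per cell. A first naming, by fold over the median cluster, was replaced after seeing that 4 clusters it called chondrocyte, with 10041 cells of 7 dpi, had 0.556% to 23.5% of their cells in the chondrocyte gate. Under it the summed log2 ratio was 1.41, *Myl9* turned to -0.27 in mesenchymal cells, and 9 genes were higher in chondrocytes, with *Actg2* at 3.11, *Tagln* at 2.64, *Cnn1* at 4.61, *Myl9* at 1.58 and *Csrp2* at 1.42. One library per time point, 15 and 20 mural cells at 1 and 3 dpi, and UMIs of the set in immune cells, most at 7 dpi and partly in few cells, limit what the levels show. The choices on mural panel genes, *Lrrc15* or *Tnn*, and the smooth muscle side were made after seeing the data.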
